A study of Mus musculus with 4 samples.

Results

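The 10 genes described here are markers and regulators of the mesenchymal transition: Vim, Cdh2, Zeb1, Zeb2, Snai1, Snai2, Twist1, Fn1, Prrx1 and Cd44. They were chosen by name, with earlier results of these data known. All 10 were found among the 17574 genes with a symbol, and all 10 are covered below. The tumours were grown from SCC7, a mouse squamous carcinoma line used as a model of head and neck cancer, injected under the skin of the back of wild-type C3H/HeN mice. In 2 libraries the mice had received anti-CD71, an antibody to the transferrin receptor, on days 6 and 9. In the other 2 the treatment label reads control, and what these mice were given is not stated in the sources used here. All 4 tumours were taken on day 10, and the bulk RNA of each whole tumour holds host cells as well as SCC7 cells. The labels do not say that replicates came from separate mice, so p-values measure the spread between these samples.

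In a mesenchymal transition, epithelial cells loosen their junctions and take on properties of motile, matrix-producing cells. Transcription factors of the SNAIL, ZEB and TWIST families bind E-box sequences and repress epithelial genes such as Cdh1, and vimentin, N-cadherin and fibronectin are commonly used as markers of the outcome. Carcinomas of the head and neck often show only part of the programme. Several of the genes are also expressed by fibroblasts, macrophages or other leukocytes, so their level in a whole tumour is a sum over cell types.

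Values are TPM, a unit of transcript abundance that is scaled for transcript length and library total. They can be compared between genes, and the read depth behind them is unknown. Of the 59881 transcripts in the complete files, anti-CD71 replicate 1 had values for 13586, and the others were treated as missing there, not as 0. Vim and Snai2 were therefore the members with a full value in all 4 libraries. For the other 8, the gene-level comparison set anti-CD71 replicate 2 against both controls. That comparison, termed the 3-library comparison, has no replicate of the treated tumour and takes its error from the controls. Its p-values thus assume that a treated tumour varies like the controls, which 1 treated library cannot check. Where all 4 libraries could be set side by side (1563 genes), log2 differences between replicates had an SD of 0.294 for the anti-CD71 tumours and 0.222 for the controls. Genes were tested with limma on log2(TPM + 1) and those with a p under 0.05 after Benjamini-Hochberg adjustment were called.

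Anti-CD71 replicate 2 had less mRNA for fibronectin (Fn1) and for the transcription factor SNAIL (Snai1) than either control, and these were the 2 members called among 10 tested in the 3-library comparison. Of all 11982 genes tested, 2.86% were called, 2.39% lower and 0.476% higher. The other 8 members did not pass, and 0 members were called higher. The median log2 change of the 10 members was -0.05, beside -0.01 over all tested genes. By position alone, 5 members lay below both controls, 2 above both and 3 between them, where 42.5% of all tested genes lay below both controls and 39.5% above both. Fewer cells of a type and less RNA per cell cannot be told apart in these bulk samples.

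**Figure D1:**
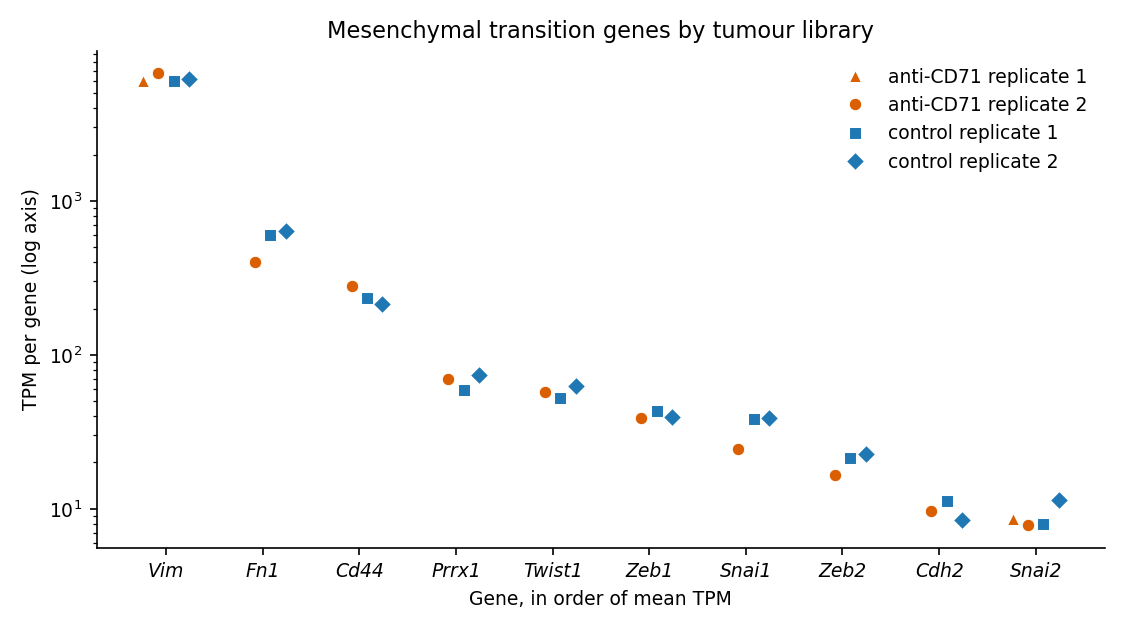
TPM of each of the 10 genes (log axis) in each library, with orange for anti-CD71 and blue for control tumours. Anti-CD71 replicate 1 is drawn only for Vim and Snai2, for which it has a full value, and Fn1 and Snai1 in anti-CD71 replicate 2 lie below both controls.

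The levels of the members spanned a wide range within each tumour. Vim was the highest, at rank 11 of 17574 genes by mean TPM over the 3 complete libraries, followed by Fn1 at rank 238 and Cd44 at rank 563. Prrx1, Twist1, Zeb1, Snai1, Zeb2, Cdh2 and Snai2 came after them in that order, ending at rank 8864. The ranges over the 3 libraries overlapped for Prrx1 and Twist1, for Zeb1 and Snai1, and for Cdh2 and Snai2. The remaining neighbours in the order did not overlap.

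Vim, at chr2:13574311-13582826 in GRCm38.p6, encodes vimentin, the intermediate filament protein of mesenchymal cells. It was at 5977.66 and 6742.41 TPM in the anti-CD71 tumours, against 6027.64 and 6157.96 TPM in the controls. The anti-CD71 libraries lay on either side of the controls, and the difference did not pass over 4 libraries (log2 change 0.06, SE 0.07, adjusted p = 0.627 by limma). Among all 1563 genes tested over 4 libraries, 4.29% were called (0.832% higher and 3.45% lower), and 0 of the 2 testable members were among them. These were 13 genes higher and 54 lower, and with median scaling 19 higher and 38 lower.

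Fn1 encodes fibronectin, a matrix glycoprotein bound by integrins. It was at 401.67 TPM in anti-CD71 replicate 2, against 603.49 and 636.45 TPM in the controls, which averaged 619.97 ± 23.31 TPM (SD, n = 2). Anti-CD71 replicate 2 thus stood at 64.8% of the control mean, and the change was called in the 3-library comparison (log2 change -0.62, SE 0.07, adjusted p = 0.0288 by limma). With genes admitted at 1 TPM in a single library the size of the change was the same and the call was lost (adjusted p = 0.116), as it was with no filter on low values (adjusted p = 0.192). Over the other alternatives with a test the adjusted p stayed between 0.0157 and 0.0310.

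The Fn1 gene lies at chr1:71585473-71653280 in GRCm38.p6 and gives many splice forms. Of its 15 RefSeq transcripts in the files, 13 had a mean of at least 1 TPM over the complete libraries, and all 13 were lower in anti-CD71 replicate 2 than in both controls. The most abundant form, NM_001276408, was at 162.13 TPM in anti-CD71 replicate 2, against 202.08 and 198.88 TPM in the controls. The next, NM_001276410, was at 92.73 TPM in anti-CD71 replicate 2, against 166.26 and 159.42 TPM in the controls. XM_006495699, the third in level, was at 75.4 TPM in anti-CD71 replicate 2, against 108.88 and 127.91 TPM in the controls. NM_001276409 was at 8.78 TPM in anti-CD71 replicate 2, against 25.29 and 27.03 TPM in the controls. Splice forms of 1 gene share most of their sequence, so their values are estimates from shared reads and do not count as 13 separate observations.

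The abundant pair differs by the exon for the extra domain A (EDA), a type III repeat that is spliced in or out. The exon is 270 bases long and lies at chr1:71603660-71603929 on the minus strand. The sequences below are shown because they are what separates the 2 most abundant fibronectin messages of these tumours. Each gives 30 bases on either side of the splice junction after exon 31 of the message, 5′ to 3′, from the GENCODE transcript paired with the RefSeq one, and capitals mark the downstream exon, which is EDA in the first and the exon after EDA in the second.
Fn1 NM_001276408 (chr1:71603900-71604999): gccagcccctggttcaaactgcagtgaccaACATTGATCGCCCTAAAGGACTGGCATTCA
Fn1 NM_001276410 (chr1:71602468-71604999): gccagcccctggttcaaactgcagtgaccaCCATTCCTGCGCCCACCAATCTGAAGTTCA

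Of the Fn1 transcripts, 7 could be paired with an annotated structure, and they held 74.0% of Fn1 TPM in anti-CD71 replicate 2 and 74.8% and 71.5% in the controls. Among these, the 4 forms with EDA summed to 183.8 TPM in anti-CD71 replicate 2, against 255.58 and 268.29 TPM in the controls. The 3 forms without EDA summed to 113.33 TPM in anti-CD71 replicate 2, against 196.13 and 186.52 TPM in the controls. Both classes were lower in the treated library. The share with EDA was 61.9% in anti-CD71 replicate 2, against 56.6% and 59.0% in the controls, and the treated value lay above the control range by little more than the controls differed. NM_010233, which has EDA and another optional repeat, EDB, was at 8.36 TPM in anti-CD71 replicate 2, against 21.51 and 34.74 TPM in the controls.

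Anti-CD71 replicate 1 listed 2 of the 15 Fn1 transcripts, which carry 3.8% of the gene's TPM. XM_030248098 was at 8.79 and 14.79 TPM in the anti-CD71 tumours, against 15.62 and 17.45 TPM in the controls. XM_006495700 was at 3.14 and 3.69 TPM in the anti-CD71 tumours, against 4.4 and 6.44 TPM in the controls. For both transcripts the anti-CD71 and control libraries did not overlap, as was so for 3 of the 9 member transcripts tested and for 49.9% of all transcripts tested. Neither passed over 4 libraries (log2 changes -0.49, adjusted p = 0.395, and -0.52, adjusted p = 0.338, by limma). Of 5765 transcripts tested in that way 0.0694% were called (0.0347% higher and 0.0347% lower), and 0 of 9 member transcripts.

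**Figure D2:**
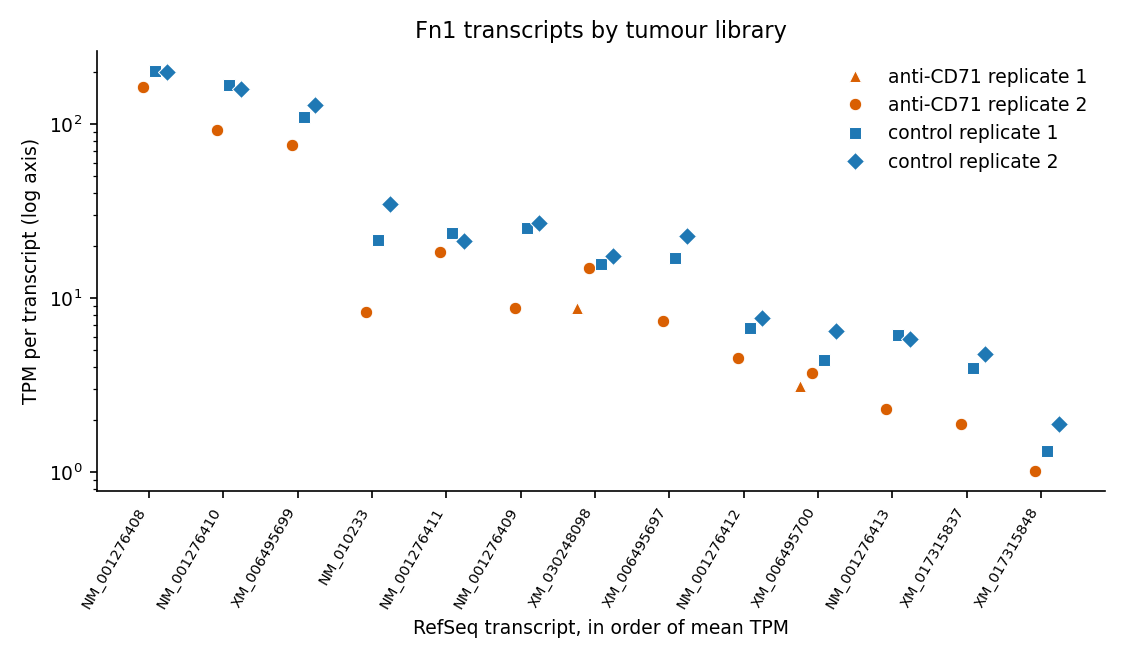
TPM (log axis) of the 13 Fn1 transcripts with a mean of at least 1 TPM, by library, with orange for anti-CD71 and blue for control tumours. Anti-CD71 replicate 2 lies below both controls for each transcript, and anti-CD71 replicate 1, which lists 2 of them, lies below both controls for these.

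Snai1, at chr2:167538195-167542814, encodes SNAIL, a zinc-finger repressor that can start a transition by silencing Cdh1. Its single transcript was at 24.62 TPM in anti-CD71 replicate 2, against 38.42 and 39.07 TPM in the controls, which averaged 38.75 ± 0.46 TPM (SD, n = 2). The treated library was at 63.5% of the control mean, and the change was called (log2 change -0.63, SE 0.09, adjusted p = 0.0404 by limma across 3 libraries). The call was lost with genes admitted at 1 TPM in a single library (adjusted p = 0.127) and with no filter (adjusted p = 0.149), at the same size of change. Snai1 was not listed for anti-CD71 replicate 1, so this fall was seen in 1 treated tumour.

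SNAIL binds E-boxes, and in cell culture it is known to bind such a site near its own start. The 250 bases before the start of Snai1, at chr2:167537945-167538194 on the plus strand of GRCm38.p6, are given from RefSeq because Snai1 was 1 of the 2 members called. Capitals mark the only match to CANNTG, which reads the same pattern on either strand. It has the letters CACCTG, and starts 126 bases before the gene's start.
Snai1 upstream: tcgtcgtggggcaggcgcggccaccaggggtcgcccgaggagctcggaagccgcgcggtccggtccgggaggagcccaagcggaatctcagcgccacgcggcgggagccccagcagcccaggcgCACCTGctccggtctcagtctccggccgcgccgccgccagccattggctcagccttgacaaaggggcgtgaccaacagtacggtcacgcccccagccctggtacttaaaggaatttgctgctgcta

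Promoter windows of 300 bases were at hand for 6 members in 9 windows, several for Zeb2. CANNTG was found in the Snai1 window and in none of the windows of Vim, Zeb2, Cd44, Prrx1 and Twist1. Over 32817 windows of all genes, 72.3% held CANNTG and 20.2% held CAGGTG or its reverse complement CACCTG. A match here is a description of letters and not a measured site.

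The related factor genes Snai2, Zeb1, Zeb2, Twist1 and Prrx1 did not pass. Snai2, at chr16:14705852-14709395, encodes SLUG, the sister repressor of SNAIL, and had a full value in every library. It was at 8.53 and 7.82 TPM in the anti-CD71 tumours, against 7.94 and 11.35 TPM in the controls (log2 change -0.20, SE 0.17, adjusted p = 0.496 by limma across 4 libraries). The groups overlapped, and the control at 11.35 TPM was the library that stood apart.

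Zeb2, at chr2:44983512-45117442, is a zinc-finger E-box repressor gene that is also active in macrophages. Of the factor genes that did not pass, it had the lowest adjusted p. It was at 16.61 TPM in anti-CD71 replicate 2, against 21.48 and 22.55 TPM in the controls (log2 change -0.39, SE 0.10, adjusted p = 0.102 by limma across 3 libraries). Of its 5 transcripts with a mean of at least 1 TPM, 3 were below both controls in that library. The leading one, NM_001289521, was at 6.48 TPM in anti-CD71 replicate 2, against 10.79 and 9.13 TPM in the controls. The transcript that anti-CD71 replicate 1 listed, NM_001355291, was at 2.3 and 2.87 TPM in the anti-CD71 tumours, and was listed at 0 in control replicate 1 and at 2.35 TPM in control replicate 2. The controls thus disagreed on that transcript by more than the groups did, and it did not pass (adjusted p = 0.48 by limma).

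Zeb1, the other ZEB repressor gene, was at 39.04 TPM in anti-CD71 replicate 2, against 43.38 and 39.59 TPM in the controls (log2 change -0.08, SE 0.10, adjusted p = 0.632 by limma). The treated library lay just below the lower control. Of 17 Zeb1 transcripts, 6 were listed for anti-CD71 replicate 1, with 39.87% of the gene's TPM, and most of that was XM_030250411. That transcript was at 16.76 and 16.03 TPM in the anti-CD71 tumours, against 13.43 and 14.76 TPM in the controls. Here the treated libraries were the higher ones, by a log2 change of 0.21 (SE 0.11) that did not pass (adjusted p = 0.404 by limma). The other main form, NM_011546, was at 14.43 TPM in anti-CD71 replicate 2, between the controls at 14.26 and 14.73 TPM.

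Twist1, at chr12:33957671-33959831, encodes a basic helix-loop-helix factor of mesoderm and neural crest. It was at 57.6 TPM in anti-CD71 replicate 2, against 52.7 and 62.9 TPM in the controls (log2 change 0.00, SE 0.13, adjusted p = 0.998 by limma). Prrx1, at chr1:163245119-163315145, encodes a homeobox factor of limb and craniofacial mesenchyme. It was at 69.36 TPM in anti-CD71 replicate 2, against 59.21 and 74.44 TPM in the controls (log2 change 0.06, SE 0.15, adjusted p = 0.825 by limma). Both genes lay between their controls.

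Prrx1 messages with different protein ends kept the same order in each library. NM_175686, with 651 coding bases, held 57.9% of Prrx1 TPM in anti-CD71 replicate 2, against 63.5% and 58.3% in the controls. NM_011127, with 735 coding bases, held 26.2% in anti-CD71 replicate 2, against 23.1% and 27.0% in the controls. Both shares in the treated library were close to those of control replicate 2.

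Cdh2, which encodes N-cadherin, the adhesion protein that often replaces E-cadherin in a transition, was among the lowest members. It was at 9.67 TPM in anti-CD71 replicate 2, between the controls at 11.26 and 8.5 TPM (log2 change -0.02, SE 0.18, adjusted p = 0.965 by limma). E-cadherin itself, encoded by Cdh1, was lower still, at 2.46 TPM in anti-CD71 replicate 2, against 2.15 and 1.79 TPM in the controls (log2 change 0.22, SE 0.20, adjusted p = 0.521 by limma). N-cadherin messages thus exceeded E-cadherin messages in all 3 complete libraries.

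Cd44, at chr2:102811141-102901669, encodes the hyaluronan receptor CD44, a surface protein of many carcinoma cells, fibroblasts and leukocytes. It was at 278.65 TPM in anti-CD71 replicate 2, against 234.77 and 215.58 TPM in the controls, and so lay above both. The difference did not pass (log2 change 0.31, SE 0.08, adjusted p = 0.111 by limma across 3 libraries).

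Nearly all of the Cd44 message was the short form. NM_001039151, which joins the constant exons with none of the 10 variable ones of the longest form, was at 270.53 TPM in anti-CD71 replicate 2, against 226.7 and 208.45 TPM in the controls. It held 97.1% of Cd44 TPM in anti-CD71 replicate 2, against 96.6% and 96.7% in the controls. The 5 annotated forms with variable exons summed to 4.37 TPM in anti-CD71 replicate 2, within the controls at 4.26 and 4.65 TPM. Of these, NM_001177787 was at 1.71 and 1.02 TPM in the anti-CD71 tumours, against 2.72 and 1.58 TPM in the controls (log2 change -0.41, SE 0.30, adjusted p = 0.552 by limma across 4 libraries). NM_001039150 was at 1.25 and 1.42 TPM in the anti-CD71 tumours, against 0.74 and 1.87 TPM in the controls, and did not pass either (adjusted p = 0.941 by limma).

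The junction that sets these forms apart lies after exon 5, and the variable exons lie at chr2:102831330-102848782. The sequences show it for the dominant short form and for NM_001177787, with 30 bases on either side, 5′ to 3′ on the minus strand of GRCm38, from the paired GENCODE transcripts. Capitals mark the downstream exon, which is constant in the first and variable in the second.
Cd44 NM_001039151 (chr2:102828581-102853044): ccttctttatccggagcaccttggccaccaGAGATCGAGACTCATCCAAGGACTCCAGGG
Cd44 NM_001177787 (chr2:102832543-102853044): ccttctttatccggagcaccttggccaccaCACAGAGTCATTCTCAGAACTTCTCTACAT

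Esrp1 and Esrp2 encode proteins that promote inclusion of variable exons in epithelial cells. Anti-CD71 replicate 2 had 1.04 TPM of Esrp1 and 1.23 TPM of Esrp2, and each control listed both genes at 0. For both genes the transcripts listed for anti-CD71 replicate 1 were at 0. Of the 11 splicing regulators in that list, 9 were tested and 0 were called, with a median log2 change of 0.21 beside -0.01 over all genes. The largest differences were for Srsf1 (log2 change 0.37, adjusted p = 0.0803 by limma) and Tra2b (log2 change 0.34, adjusted p = 0.0832), both encoding exon-binding splicing factors.

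Genes that feed into the transition were next described by lists. Transforming growth factor beta is the best known inducer, and of its 13 ligand and activator genes 10 were tested over 3 libraries. Of these 0 were called, with a median log2 change of -0.22, beside -0.01 over all tested genes. The changes ran from -1.23 to 0.58, with 7 of the 10 below 0. By position, 5 of the 13 lay above both controls in anti-CD71 replicate 2 and 6 below, where 39.5% and 42.5% of all tested genes did. Tgfb1 had a full value everywhere, at 60.54 and 61.23 TPM in the anti-CD71 tumours, against 76.84 and 88.37 TPM in the controls. The groups did not overlap, as for 59.4% of all genes tested over 4 libraries, and the difference did not pass (log2 change -0.43, SE 0.09, adjusted p = 0.0557 by limma across 4 libraries). Tgfb3 was at 16.25 TPM in anti-CD71 replicate 2, against 33.35 and 46.35 TPM in the controls (log2 change -1.23, SE 0.20, adjusted p = 0.0511 by limma across 3 libraries). With libraries scaled to a common median it passed (adjusted p = 0.0289). Ltbp2, for a matrix protein of the latent complex family, was the next largest (log2 change -0.84, adjusted p = 0.0915).

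Of 17 receptor and SMAD genes, all 17 were tested and 0 were called. With 15 below 0, the median log2 change was -0.13, beside -0.01 over all tested genes. All of these changes rest on 1 treated library and do not count as 17 separate observations. Smad3, which carries the receptor signal to the nucleus, was at 29.17 TPM in anti-CD71 replicate 2, against 38.92 and 47.04 TPM in the controls (log2 change -0.54, adjusted p = 0.1 by limma). Counting curated transcripts alone, the change was -0.96 and passed (adjusted p = 0.0433). Ski, for a corepressor of SMAD proteins, was at 28.97 TPM in anti-CD71 replicate 2, against 37.73 and 43.43 TPM in the controls (adjusted p = 0.0976).

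Of 20 other factors that promote or accompany a transition, 18 were tested and 0 were called (median log2 change -0.04). Id3, an inhibitor of helix-loop-helix factors and a target of bone morphogenetic protein signalling, was at 115.27 TPM in anti-CD71 replicate 2, against 187.28 and 248.16 TPM in the controls (log2 change -0.90, adjusted p = 0.067 by limma), and it passed with median scaling (adjusted p = 0.0408). Prrx2, the paralogue of Prrx1, was at 27.07 TPM in anti-CD71 replicate 2, against 34.97 and 45.09 TPM in the controls (adjusted p = 0.138). Of 14 genes found that control SNAIL protein turnover or act with it, 13 were tested and 0 were called. Ajuba, a SNAIL corepressor gene, had the largest difference (log2 change 0.39, adjusted p = 0.121), followed by Btrc, for a ubiquitin ligase subunit (log2 change -0.27, adjusted p = 0.287).

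On the epithelial side, most genes were near 0 in the controls. Of 13 regulators of the epithelial state, 10 were under 1 TPM in both controls and 3 could be tested. In anti-CD71 replicate 2, 10 of the 13 lay above both controls and 1 below. Of all genes tested over 3 libraries, 39.5% lay above both and 42.5% below, but most of these regulators were too low to test. Klf4, for a zinc-finger factor of differentiating epithelium, was at 77.62 TPM in anti-CD71 replicate 2, against 126.83 and 123.63 TPM in the controls, and was called lower (log2 change -0.68, SE 0.08, adjusted p = 0.0288 by limma). It lost the call with genes admitted at 1 TPM in a single library (adjusted p = 0.105) and with no filter on low values (adjusted p = 0.134). Klf4 is also active in macrophages and endothelium.

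Of 25 junction genes, 15 were under 1 TPM in both controls, 10 were tested and 0 were called. In anti-CD71 replicate 2, 16 of the 25 lay above both controls and 6 below, where 39.5% and 42.5% of all tested genes did. Dsc2, for a desmosomal cadherin, was at 0.29 TPM in anti-CD71 replicate 2, against 2.17 and 3.9 TPM in the controls (log2 change -1.61, adjusted p = 0.0687 by limma), and passed with median scaling (adjusted p = 0.0454). Jup, for plakoglobin, was at 9.0 TPM in anti-CD71 replicate 2, against 9.77 and 13.42 TPM in the controls (adjusted p = 0.368). Dsp, for desmoplakin, could not be tested, and was at 5.34 TPM in anti-CD71 replicate 2, against 0.07 and 0.06 TPM in the controls. That library also held skin keratins, as given below with the marker lists.

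The 27 mesenchymal effector genes found and tested had a median log2 change of 0.0 over 3 libraries. For the 19 tested partners of fibronectin and CD44 it was 0.03, beside -0.01 over all tested genes. In both lists the called gene was the same one, Spp1. It encodes osteopontin, a secreted ligand of integrins and CD44 that macrophages also make. Its listed transcripts were at 520.33 and 370.29 TPM in the anti-CD71 tumours, against 702.77 and 810.41 TPM in the controls. The change was called over 3 libraries (log2 change -1.02, SE 0.10, adjusted p = 0.0249 by limma) and not over 4 (log2 change -0.78, SE 0.17, adjusted p = 0.0607). The 3-library call was lost at 1 TPM in a single library (adjusted p = 0.129) and with no filter (adjusted p = 0.21).

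The other 18 tested partners did not pass. Among the lower ones were Itgb3 (log2 change -0.83, adjusted p = 0.0629), Itga4 (-0.67, adjusted p = 0.0775) and Tgm2 (-0.55, adjusted p = 0.0591), the first 2 encoding integrin chains and Tgm2 a transglutaminase that cross-links matrix proteins. The genes of the main fibronectin receptor, Itga5 and Itgb1, were nearer to the controls. Itga5 was at 114.29 TPM in anti-CD71 replicate 2, against 111.05 and 109.69 TPM in the controls (adjusted p = 0.711 by limma across 3 libraries). Itgb1 was at 335.88 and 393.82 TPM in the anti-CD71 tumours, on either side of the controls at 366.07 and 356.81 TPM (adjusted p = 0.954 by limma across 4 libraries). These partner genes and Axl were chosen for mention after their values were seen. Axl, for a receptor kinase of mesenchymal carcinoma cells, was at 496.26 TPM in anti-CD71 replicate 2, against 430.05 and 437.79 TPM in the controls (adjusted p = 0.149).

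**Figure D3:**
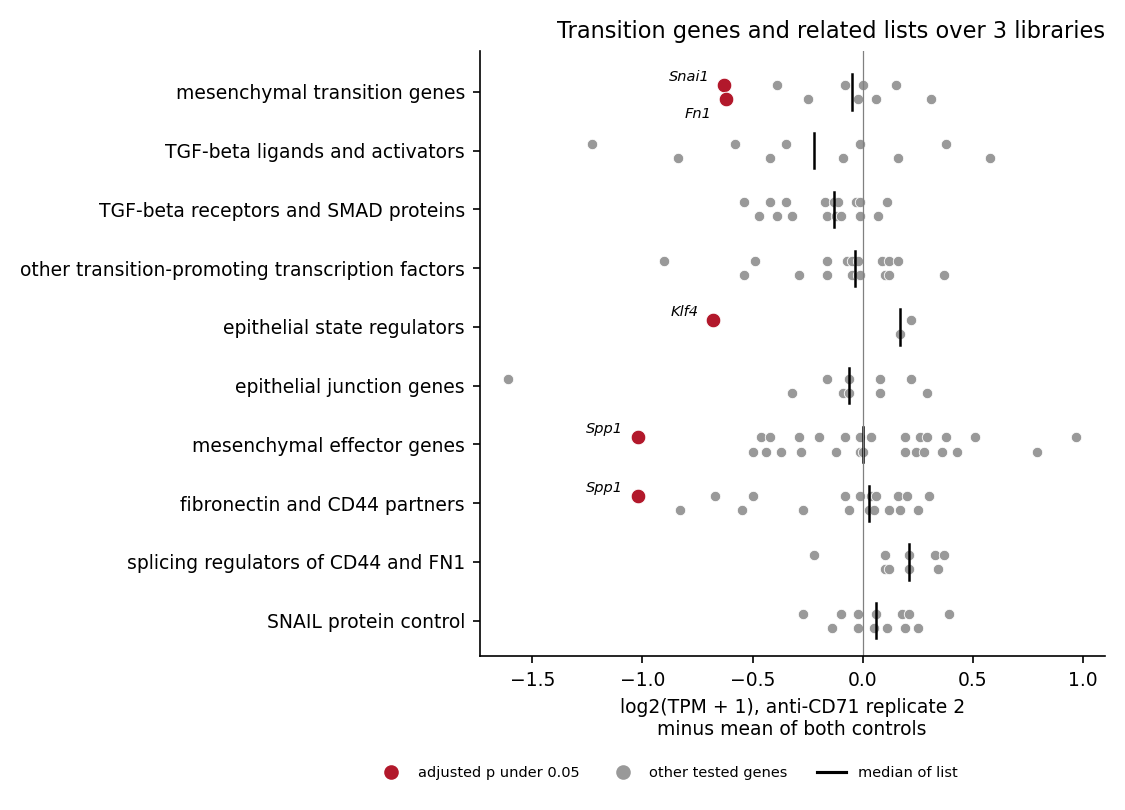
Log2 change of anti-CD71 replicate 2 against the mean of both controls on the log2(TPM + 1) scale, for each tested gene of the member list and of 9 related lists. Red points are called (Snai1, Fn1, Klf4 and Spp1, which is in 2 lists), grey points are not, and black bars are list medians.

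Genes whose pattern was most like that of a called member were looked for by the distance between centred log2(TPM + 1) values over the 3 complete libraries, among 8570 other genes whose mean reached 10 TPM. Nearest to Snai1 were Ets2, Sdc3 and Rab43, at distances of 0.009, 0.014 and 0.016. Ets2 was at 28.54 TPM in anti-CD71 replicate 2, against 44.06 and 45.04 TPM in the controls. Nearest to Fn1 were Psap, Sema4d and Gm2a, at distances of 0.015, 0.016 and 0.02. Psap, for a precursor of lysosomal activator proteins, was at 788.86 TPM in anti-CD71 replicate 2, against 1199.76 and 1249.22 TPM in the controls. With 3 libraries such likeness is common, and 97 genes lay within 0.1 of Snai1 and 116 within 0.1 of Fn1.

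Cell type marker lists also differed between the libraries, some lower and some higher in anti-CD71 replicate 2. Whether they bear on the falls of Fn1 and Snai1 was not tested. Of 11 macrophage markers all were tested, 8 were called lower and 0 higher, with C1qb (log2 change -1.37), C1qc (-1.31) and C1qa (-1.23) falling most among them. Their summed level was 3884.06 TPM in anti-CD71 replicate 2, against 7334.64 and 9323.81 TPM in the controls. Over the 4 of them with a transcript listed for anti-CD71 replicate 1 the sums were 298.42 and 289.1 TPM in the anti-CD71 tumours, against 423.67 and 471.38 TPM in the controls. Over 4 libraries 3 macrophage markers were tested and 2 were called lower, where 3.45% of all genes tested were. These were Csf1r (log2 change -1.03, adjusted p = 0.032 by limma) and Cd14 (-0.44, adjusted p = 0.0388). Mertk was not called (-0.36, adjusted p = 0.114). With no filter on low values 0 genes were called lower over 4 libraries. With genes admitted at 1 TPM in a single library C1qa, C1qb and C1qc were not called across 3 libraries (adjusted p between 0.155 and 0.165 by limma). No macrophage marker was at 0 in the 3 complete libraries. With no filter on low values 0 genes of any kind were called across 3 libraries, these markers included, and before adjustment 3401 had a limma p under 0.05.

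The summed level of 12 fibroblast markers was 511.64 TPM in anti-CD71 replicate 2, against 550.65 and 912.5 TPM in the controls, which differed widely between themselves. Of these, Pdgfra, for a growth factor receptor of fibroblasts, was called lower, at 59.49 TPM in anti-CD71 replicate 2, against 94.35 and 92.81 TPM in the controls (log2 change -0.64, adjusted p = 0.0321 by limma). It did not pass with curated transcripts alone (adjusted p = 0.0822), with genes admitted at 1 TPM in a single library (adjusted p = 0.113) or with no filter (adjusted p = 0.128). The other 11 did not pass. Endothelial markers summed to 76.02 TPM in anti-CD71 replicate 2, against 88.09 and 88.65 TPM in the controls, with 0 of 7 tested called. Pericyte and smooth muscle markers summed to 57.04 TPM, against 67.28 and 62.28 TPM in the controls, with 0 of 6 tested called.

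Keratinocyte and hair markers were near 0 in the control tumours of this squamous line. All 12 of these markers were under 1 TPM in both controls, 9 of them at 0 in each, among them the basal keratin gene Krt5. Their sum was 255.32 TPM in anti-CD71 replicate 2, against 0.33 and 0.46 TPM in the controls, with the hair follicle keratin gene Krt71 among the contributors. The 3 markers with a listed transcript summed to 0.11 and 60.54 TPM in the anti-CD71 tumours, against 0.04 and 0.05 TPM in the controls. All of the 60.54 TPM was 1 gene, Krt25, which was at 0 in anti-CD71 replicate 1. The listed transcripts carried 0.0% of the TPM of Krt14 and 4.86% of that of Trp63. Krt5 and Krt71 had no transcript listed there, so the level of most of these markers in anti-CD71 replicate 1 is unknown. Both member falls called above were measured in anti-CD71 replicate 2, and without that library Fn1 and Snai1 have no full value for a treated tumour. Whether these keratinocyte transcripts bear on the falls was not tested.

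Other markers are given as sums. Neutrophil markers stood at 510.04 TPM in anti-CD71 replicate 2, against 17.05 and 11.29 TPM in the controls, with S100a8 and S100a9 called higher among 3 tested. The 4 neutrophil markers with a listed transcript summed to 144.32 and 186.16 TPM in the anti-CD71 tumours, against 4.5 and 1.46 TPM in the controls. Nearly all of this was 1 gene, S100a9, at 142.39 and 183.5 TPM in the anti-CD71 tumours, against 3.67 and 0 TPM in the controls. Listed transcripts of Cxcr2 were at 1.16 and 1.5 TPM in the anti-CD71 tumours and at 0 in both controls. Those of Csf3r and Ltf overlapped the controls. T and NK lymphocyte markers stood at 46.96 TPM, against 175.87 and 161.12 TPM in the controls, with 4 of 8 tested called lower (Cd3g, Gzmb, Ncr1 and Prf1). Over 4 libraries 0 of the 3 of these with full values were called, with adjusted p = 0.0651 for Cd3g, 0.241 for Gzmb and 0.0554 for Ncr1 by limma. Gzmb ran between log2 changes of -1.71 without anti-CD71 replicate 1 and -0.21 without anti-CD71 replicate 2, and Cd3g did not pass over 3 libraries with curated transcripts alone (adjusted p = 0.0537). The 3 lymphocyte markers that were listed summed to 87.87 and 32.14 TPM in the anti-CD71 tumours, against 116.14 and 101.58 TPM in the controls. Skeletal muscle markers stood at 94.73 TPM, between the controls at 153.31 and 38.14 TPM, with 0 called. Adipocyte markers stood at 124.99 TPM, against 80.16 and 105.76 TPM in the controls, with Cfd called higher. With genes admitted at 1 TPM in a single library, Prf1 still passed across 3 libraries (adjusted p = 0.0393 by limma), while S100a9 (0.0748), S100a8 (0.129), Cfd (0.127), Cd3g (0.129), Gzmb (0.103) and Ncr1 (0.116) did not. Schwann cell and melanocyte markers summed to 5.4 TPM, against 1.58 and 2.37 TPM in the controls, and none could be tested.

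**Figure D4:**
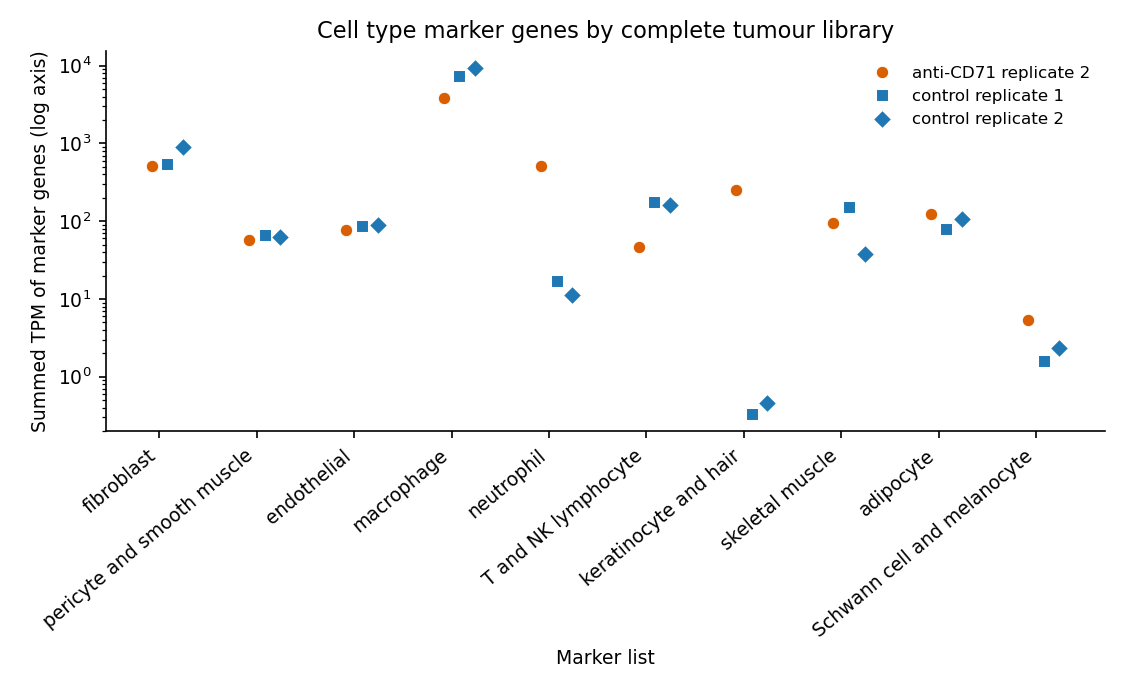
Summed TPM (log axis) of each list of cell type markers in the 3 complete libraries, with orange for anti-CD71 replicate 2 and blue for the controls. Macrophage, lymphocyte, fibroblast, endothelial, and pericyte and smooth muscle sums are below both controls in anti-CD71 replicate 2. Neutrophil, keratinocyte, adipocyte, and Schwann cell and melanocyte sums are above both, and the skeletal muscle sum lies between them.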

How the data were processed

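Bulk RNA of 2 anti-CD71 and 2 control tumours was measured. RNA was extracted with TRIZOL and libraries were made by BGI, per the labels' protocols. The authors deposited TPM per RefSeq transcript. The submitters' processing notes name GRCm38.p6 as the build. The sources used here do not give the aligner, the quantifier or the depth, so no counting interval was computed and precision rests on replicates. The last, incomplete line of the anti-CD71 replicate 1 file was dropped.

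A RefSeq table of the same build gave symbols for 58425 of 59881 transcripts, and TPM were added per gene. limma 3.58.1 in R 4.3.3, with an intensity trend, was run on log2(TPM + 1) for features with at least 1 TPM in 2 libraries. Fold changes are on that scale, which understates changes of low genes. Over 4 libraries a gene was tested where transcripts listed for all libraries carried at least 90% of its TPM. The scripts were tested on simulated data. GENCODE M21 gave exon structures for 24 of 57 member transcripts.

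Members and the 19 other lists were chosen with earlier results of these data known. Named were all members, all list genes called (the 3 largest where over 6 were), and the 2 largest changes where a pathway list had none. Of member transcripts with a mean of at least 1 TPM, those not named are counted. Other genes named (Tgfb1, Cdh1, Esrp1, Esrp2, Dsp, Krt5, Krt71, Itga4, Itga5, Itgb1, Itgb3, Tgm2, Axl) were chosen after their values were seen. The cell type markers Csf1r, Cd14, Mertk, Cxcr2, Csf3r, Ltf, Krt25, Krt14 and Trp63 were also named outside that rule. Alternatives covered the pseudocount, filter, scaling, transcript set, replicate block and leaving out libraries.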

Additional observations from a re-analysis of the deposited data

How the results depend on the processing

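Over the 7 alternatives of the 3-library comparison, log2 changes ran between -0.66 and -0.59 for Fn1 and between -0.65 and -0.62 for Snai1. All 7 use the same treated library, and a filter leaves the size of a change as it was. A gene below both controls also keeps its direction when either control is left out. The kept direction is therefore no test of these falls. Members called lower numbered 2, and 0 both with no filter on low values and with 1 TPM in a single library. All genes called over 3 libraries numbered 343, against 0 with no filter (3401 at an unadjusted p under 0.05 by limma), 72 (60 higher and 12 lower, where 57 and 286 were called in the main setting) with 1 TPM in a single library and 614 with median scaling. Leaving out a control there gives values with no test. Over 4 libraries, 67 genes were called, against 1 with no filter, 8 with 1 TPM in a single library, 4 counting any listed transcript, 11 with curated transcripts and between 1 (without control replicate 1) and 96 (without anti-CD71 replicate 1) with a library left out; without control replicate 2 there were 2, and without anti-CD71 replicate 2 there were 33. Median scaling changed the split from 13 higher and 54 lower to 19 higher and 38 lower. Of transcripts, 4 were called, against 0 with a pseudocount of 0.1 TPM (905 at an unadjusted p under 0.05 by limma), 0 with no filter (1330 unadjusted) and between 0 and 1 with a library left out. The cause of these differences was not tested.

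Replicate numbers were not shown to pair the libraries: deviations of same-numbered libraries correlated at -0.006 over 1563 genes. With the replicate block, 3 genes and 0 transcripts (871 at an unadjusted p under 0.05 by limma) were called, and 0 members, as without it. No paired analysis was possible over 3 libraries because 1 treated library remains.

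Over 4 libraries, with a library left out, uncalled log2 changes that changed sign ran from -0.03 to 0.15 for Vim, from -0.43 to 0.04 for Snai2, from -0.31 to 0.5 for the Zeb1 transcript XM_030250406 and from -0.3 to 0.42 for the Cd44 transcript NM_001039150. Over 3 libraries, with a control left out and no test, they ran from -0.2 to 0.17 for Cdh2, from -0.1 to 0.22 for Prrx1 and from -0.12 to 0.13 for Twist1. TPM keeps no depth, so what depth limits cannot be stated.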
